A study of Mus musculus with 4 samples.

Results

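The genes by which neurons make, load, recycle, break down and sense acetylcholine were examined in sympathetic ganglia (SG) from thoracic levels T1–T4. They are *Chat*, *Slc18a3*, *Slc5a7*, *Ache*, *Bche*, *Chrm1*, *Chrm2*, *Chrm3* and *Chrm4*, 9 genes of the 17667 listed in at least 1 library, matched by symbol to the Entrez identifiers of the tables. All 9 had reads in at least 1 library and 8 of them, all but *Chrm3*, were listed in all 4 libraries. RNA-seq was done on 1 library labelled TRKC+/-, a genotype heterozygous in every cell for a loss of the NT-3 receptor TRKC, 1 library from AdNTF3-Tg mice, which carry an NT-3 transgene driven by the adiponectin promoter in adipocytes, and 2 libraries (WT_1 and WT_2) from WT mice. By their labels all mice were C57BL/6 and 12 weeks old, and they were kept for 1 day at 5 °C, and ganglia of several mice were pooled into each library. The WT mice were controls of the respective lines, and as the labels do not tie a WT library to a line, each mutant library was set against both. The AdNTF3-Tg and TRKC+/- comparisons therefore share their controls.

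Acetylcholine is the transmitter of the spinal preganglionic fibres that end in these ganglia, and it is also made by a minority of the ganglion neurons themselves, those that innervate sweat glands and some blood vessels. It is made by choline acetyltransferase, packed into vesicles by the vesicular acetylcholine transporter, and cleared by acetylcholinesterase, after which choline is taken back up by a high-affinity transporter. Most sympathetic neurons are noradrenergic and receive acetylcholine through nicotinic receptors and through muscarinic receptors, which couple to G proteins and adjust excitability more slowly. M1 and M3 receptors couple to Gq and phospholipase C, and M2 and M4 receptors to Gi and Go. The RNA of preganglionic neurons lies mainly in the spinal cord, outside the tissue sampled.

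Between 8665955 and 8894985 reads on genes were counted per library. The tissue carried its labelled identity, since all 10 markers of noradrenergic neurons were listed in all 4 libraries, with *Th*, the rate-limiting enzyme of catecholamine synthesis, at 2576 to 2753 FPKM, reads scaled to gene length and to the reads of the library. *Ntrk3*, which encodes TRKC, was at 2.45 FPKM in WT_1, 2.52 in WT_2, 2.72 in the library labelled TRKC+/- and 2.32 in AdNTF3-Tg. The RNA counted for the targeted gene was thus not lower in the library labelled TRKC+/-. These values are per gene, do not tell the alleles apart and cannot decide the genotype. The summed FPKM of 9 skeletal muscle markers was 102.25 in WT_1 and 3.37 in WT_2, where *Myh1* was at 0, against 47.23 in the library labelled TRKC+/- and 35.65 in AdNTF3-Tg. *Ucp1* of brown fat was at 7.8 FPKM in the library labelled TRKC+/- and at 37.81 to 48.14 FPKM in the others. A gene was counted as past the cutoff when log2 of the ratio of (FPKM + 0.1) was at least 0.5 in size, in the same direction, against each of the WT libraries. Ratios of reads per library total are given with 95% counting intervals (exact, Clopper-Pearson), which cover counting error only and not the spread between mice.

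The 8 genes listed in all libraries spanned a wide range of levels. *Ache* had the highest level, with a mean of 243.1 ± 8.71 FPKM (SD, n = 4 libraries), which ranked it 284th of the 15275 genes listed in all 4 libraries. *Chrm2* followed at 22.65 ± 1.23 FPKM and *Chrm1* at 17.1 ± 0.262 FPKM. *Slc18a3* had 4.36 ± 0.196 FPKM, *Bche* 2.49 ± 0.72, *Slc5a7* 2.36 ± 0.707, *Chrm4* 2.31 ± 0.523 and *Chat* 0.752 ± 0.228. Each of these steps held in all 4 libraries without overlap between the ranges, apart from those among *Bche*, *Slc5a7* and *Chrm4*, whose ranges overlapped. In every library *Ache*, *Chrm2* and *Chrm1* were above the 3 genes of synthesis and transport, and *Chat* stood at percentile 14.0 of all genes.

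**Figure D1:**
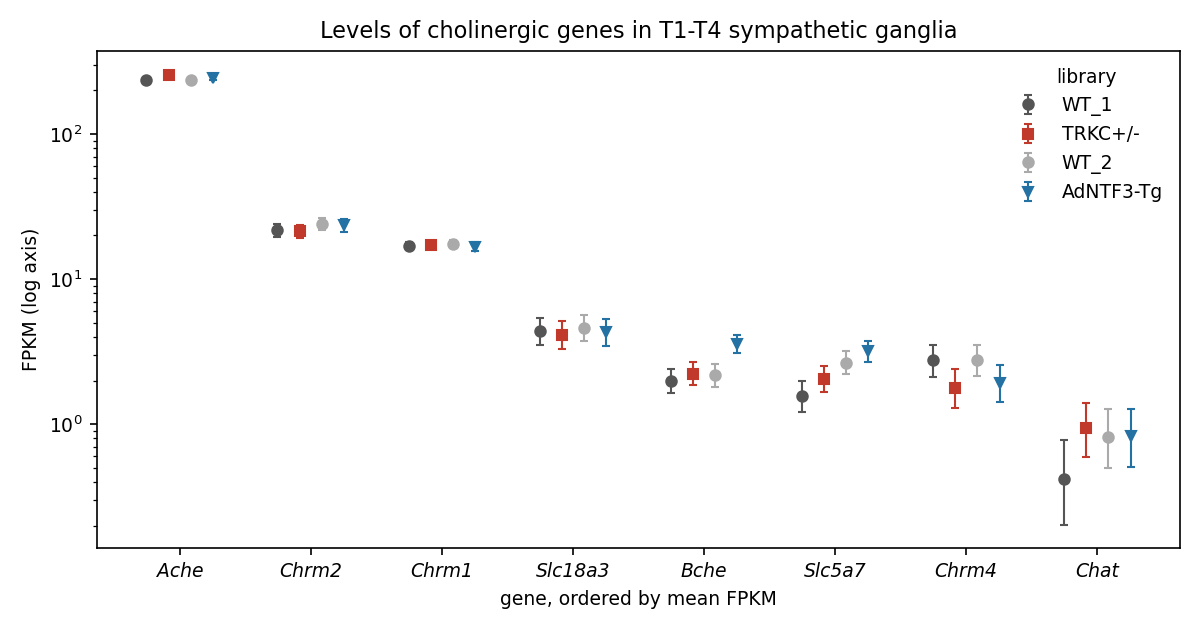
FPKM (log axis) of the 8 genes listed in all 4 libraries, in order of their mean. Each point is 1 library and each bar its 95% counting interval. *Ache* lies between 235.67 and 254.93 FPKM, and *Chat*, the lowest, between 0.42 and 0.94 FPKM.

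*Chat* and *Slc18a3* form 1 locus on chromosome 14, where *Slc18a3* (Entrez 20508, 32462437 to 32464850 on GRCm38.p6) lies inside the span of *Chat* (Entrez 12647, 32408203 to 32465909) on the same strand. Because these 2 genes are transcribed side by side from neighbouring starts, their RefSeq promoter windows are shown, with the GC box GGGCGG, read on both strands, in capitals. The windows are chr14:32465860-32466159 for *Chat* and chr14:32464801-32465100 for *Slc18a3*, both on the minus strand and written 5′ to 3′.

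Chat: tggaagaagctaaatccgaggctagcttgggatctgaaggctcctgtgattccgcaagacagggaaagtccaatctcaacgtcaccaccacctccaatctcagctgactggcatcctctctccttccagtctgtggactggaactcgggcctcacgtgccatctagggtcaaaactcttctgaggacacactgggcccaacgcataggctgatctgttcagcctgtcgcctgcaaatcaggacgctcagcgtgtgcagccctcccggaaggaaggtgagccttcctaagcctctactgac

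Slc18a3: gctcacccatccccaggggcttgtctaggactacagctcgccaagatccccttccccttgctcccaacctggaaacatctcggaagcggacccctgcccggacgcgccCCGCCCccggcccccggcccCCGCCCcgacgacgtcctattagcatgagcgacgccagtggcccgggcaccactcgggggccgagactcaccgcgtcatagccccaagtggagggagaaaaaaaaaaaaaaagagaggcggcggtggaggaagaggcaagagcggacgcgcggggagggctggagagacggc

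The *Slc18a3* window held 2 GC boxes and 67.0% G and C, and the *Chat* window held no GC box and 55.7%, where the median over 32851 promoter windows of the same length is 52.7%. A GC box was found in 35.7% of those windows and in 5 of the 8 available here (none was available for *Chrm1*).

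*Chat*, which encodes choline acetyltransferase, had 0.42 FPKM (10 reads) in WT_1, 0.82 FPKM (20 reads) in WT_2, 0.94 FPKM (23 reads) in the library labelled TRKC+/- and 0.83 FPKM (20 reads) in AdNTF3-Tg. WT_1 had the fewest reads, and the log2 ratio of reads of WT_1 over WT_2 was −0.97, with a counting interval (−2.23 to 0.19) that includes 0. On the log2 scale of reads the library labelled TRKC+/- was above WT_1 by 1.16 (counting interval 0.04 to 2.40) and above WT_2 by 0.19 (−0.73 to 1.14). AdNTF3-Tg was above WT_1 by 0.98 (−0.19 to 2.24) and differed from WT_2 by 0.01 (−0.96 to 0.98). The gene passed the cutoff in neither mutant, since both were close to WT_2. *Slc18a3*, which encodes the vesicular acetylcholine transporter VAChT, was steady at 4.38 FPKM (90 reads) in WT_1, 4.62 (96 reads) in WT_2, 4.15 (87 reads) in the library labelled TRKC+/- and 4.30 (89 reads) in AdNTF3-Tg. Its log2 ratio of reads to either WT library had counting intervals from −0.53 to 0.36 and from −0.59 to 0.28 in the library labelled TRKC+/-, and from −0.48 to 0.40 and from −0.54 to 0.33 in AdNTF3-Tg, so that differences within these bounds were not detectable at this depth. The 2 genes of the locus differed in level per length by between 4.41-fold and 10.43-fold in favour of *Slc18a3*, with the widest gap in WT_1, where *Chat* rested on 10 reads.

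*Slc5a7* (Entrez 63993, chromosome 17, 54273590 to 54299038) encodes the choline transporter CHT1, which returns choline to the terminal. It had 1.56 FPKM (70 reads) in WT_1, 2.66 FPKM (121 reads) in WT_2, 2.05 FPKM (94 reads) in the library labelled TRKC+/- and 3.18 FPKM (144 reads) in AdNTF3-Tg. WT_1 was the lowest library and AdNTF3-Tg the highest, and the library labelled TRKC+/- lay between the WT libraries. The log2 ratio of reads between the WT libraries was −0.76 (WT_1 over WT_2, counting interval −1.21 to −0.32). AdNTF3-Tg was above WT_1 by 1.02 (0.60 to 1.45) and above WT_2 by 0.26 (−0.10 to 0.62), short of the cutoff against the latter. Of the 8 genes, *Slc5a7* and *Chat* differed by at least 0.5 between the WT libraries, where 13.4% of all genes did so. With the counting interval also leaving out 0, *Slc5a7* remained, beside 5.15% of all genes. The skeletal muscle markers differed between the same libraries in the other direction, with 102.25 FPKM in WT_1 against 3.37 in WT_2, and their part in these differences was not tested.

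The cholinesterases are *Ache*, whose product hydrolyses acetylcholine at synapses, and *Bche*, whose product butyrylcholinesterase accepts a wider range of choline esters and is also made by glia and other cells. The RefSeq promoter windows of the 2 genes are shown because the esterase genes differ widely in base composition there, with GC boxes again in capitals. They are chr5:137288004-137288303 on the plus strand for *Ache* and chr3:73708366-73708665 on the minus strand for *Bche*, both on GRCm38.p6.

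Ache: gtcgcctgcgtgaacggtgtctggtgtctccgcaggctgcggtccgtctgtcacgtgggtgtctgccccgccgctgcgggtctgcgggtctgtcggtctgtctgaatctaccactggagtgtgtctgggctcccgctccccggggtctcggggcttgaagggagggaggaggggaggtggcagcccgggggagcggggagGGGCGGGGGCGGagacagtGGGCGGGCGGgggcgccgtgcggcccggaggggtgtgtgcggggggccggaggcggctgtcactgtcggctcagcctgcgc

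Bche: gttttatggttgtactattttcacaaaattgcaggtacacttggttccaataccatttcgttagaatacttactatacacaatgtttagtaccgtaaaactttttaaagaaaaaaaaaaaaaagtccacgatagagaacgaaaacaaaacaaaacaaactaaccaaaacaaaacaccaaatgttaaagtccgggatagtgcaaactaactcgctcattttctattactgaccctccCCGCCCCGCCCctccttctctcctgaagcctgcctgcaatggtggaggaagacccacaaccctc

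The *Ache* window held 74.0% G and C (percentile 95.6 of all windows) and 4 GC boxes, a pair of which share bases, and the *Bche* window 39.3% (percentile 9.5) and 2 GC boxes that share a base. These are descriptions of the letters in the windows, and binding to them was not measured.

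*Ache* (Entrez 11423, chromosome 5, 137288247 to 137294466) had 237.54 FPKM (4402 reads) in WT_1, 235.67 (4418 reads) in WT_2, 254.93 (4824 reads) in the library labelled TRKC+/- and 244.41 (4558 reads) in AdNTF3-Tg. The WT libraries were nearly equal, and the library labelled TRKC+/- was above both, at 1.08-fold of the WT mean. Its log2 ratio of reads was 0.09 against WT_1 (counting interval 0.04 to 0.15) and 0.12 against WT_2 (0.06 to 0.18), both well short of the cutoff. *Ache* is also a gene of muscle fibres and their end plates. Between the WT libraries *Ache* differed by 0.01 on the log2 scale, and the summed skeletal muscle markers were at 102.25 and 3.37 FPKM. The part of muscle in the level of *Ache* was not tested.

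*Bche* (Entrez 12038, chromosome 3, 73635805 to 73708436) was higher in AdNTF3-Tg than in any other library. It had 2.0 FPKM (107 reads) in WT_1, 2.17 FPKM (118 reads) in WT_2, 2.23 FPKM (122 reads) in the library labelled TRKC+/- and 3.56 FPKM (193 reads) in AdNTF3-Tg. The first 3 libraries were close together, the WT pair at 2.09 ± 0.12 FPKM (SD, n = 2), and AdNTF3-Tg stood apart from them. With 0.1 FPKM added, its level was 1.68-fold the WT mean, a log2 fold change of 0.74. The log2 ratio of reads was 0.83 against WT_1 (counting interval 0.48 to 1.18) and 0.72 against WT_2 (0.38 to 1.06). *Bche* was the 1 gene of the 8 past the cutoff in AdNTF3-Tg, where 5.7% of all genes were (871 of 15275), and it also met the stricter rule that both counting intervals leave out 0, which 1.28% of all genes met. Past the cutoff were 2.6% of the 12752 genes that averaged 1 FPKM or more. In edgeR's quasi-likelihood test on all genes, with the 2 WT libraries as replicates, the adjusted p of *Bche* was 0.827.

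That test passed 0 of the 8 genes and 0.0% of all genes in either mutant at an adjusted p under 0.05. At an unadjusted p under 0.05 it held 699 of the 15275 genes for AdNTF3-Tg and 262 for the library labelled TRKC+/-, and DESeq2 called 0 and 2 genes, the latter *Ucp1* and *Npcd*. It assumes that a lone mutant library varies as the WT pair does, a spread estimated with 1 residual degree of freedom. The markers of other cells that could carry *Bche* were set beside it. Of 9 markers of satellite glia and Schwann cells 0 passed the cutoff in AdNTF3-Tg, and their summed level of 1069 FPKM lay between the 970 of WT_2 and the 1136 of WT_1. Of 5 smooth muscle markers 0 passed it, with a sum of 73.07 FPKM against 71.26 and 93.85 in the WT libraries. Of 7 adipocyte markers *Lep* was lower in AdNTF3-Tg (1 of 7), at 3 reads, the floor, against 10 in WT_1 and 15 in WT_2. Their sum was 278 FPKM against 344 and 381 in the WT libraries, and most of it was *Fabp4*, at 173 FPKM in AdNTF3-Tg. Of 6 immune markers *Lyz2* was lower (1 of 6), with a sum of 144 FPKM against 191 and 208, and the 3 blood markers summed to 39.96 FPKM against 30.98 and 78.51, with *Alas2* higher (8 reads against 3 and 4, 1 of 3) and *Hba-a1* and *Hbb-b1* at log2 fold changes of −0.54 and −0.09. The 4 endothelial markers summed to 24.44 FPKM against 24.79 and 28.42, with 0 past the cutoff. No marker of these lists was at 0. Their part in the level of *Bche* was not tested. In bulk tissue, more cells of a type and more RNA per cell cannot be told apart.

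*Bche* and *Slc5a7* differed between the mutant libraries. *Bche* in the library labelled TRKC+/- was lower than in AdNTF3-Tg by 0.65 on the log2 scale (log2 ratio of reads −0.68, counting interval −1.02 to −0.34). *Slc5a7* was lower there by 0.61 (−0.63, −1.02 to −0.25). They were 2 of the 8 genes to differ by at least 0.5 with a counting interval that leaves out 0, as did 5.16% of all genes. The ratio of *Ache* to *Bche* per length was 118.8 in WT_1, 108.6 in WT_2, 114.3 in the library labelled TRKC+/- and 68.7 in AdNTF3-Tg, so that *Ache* made up at least 98.6% of the summed FPKM of both esterases in every library.

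**Figure D2:**
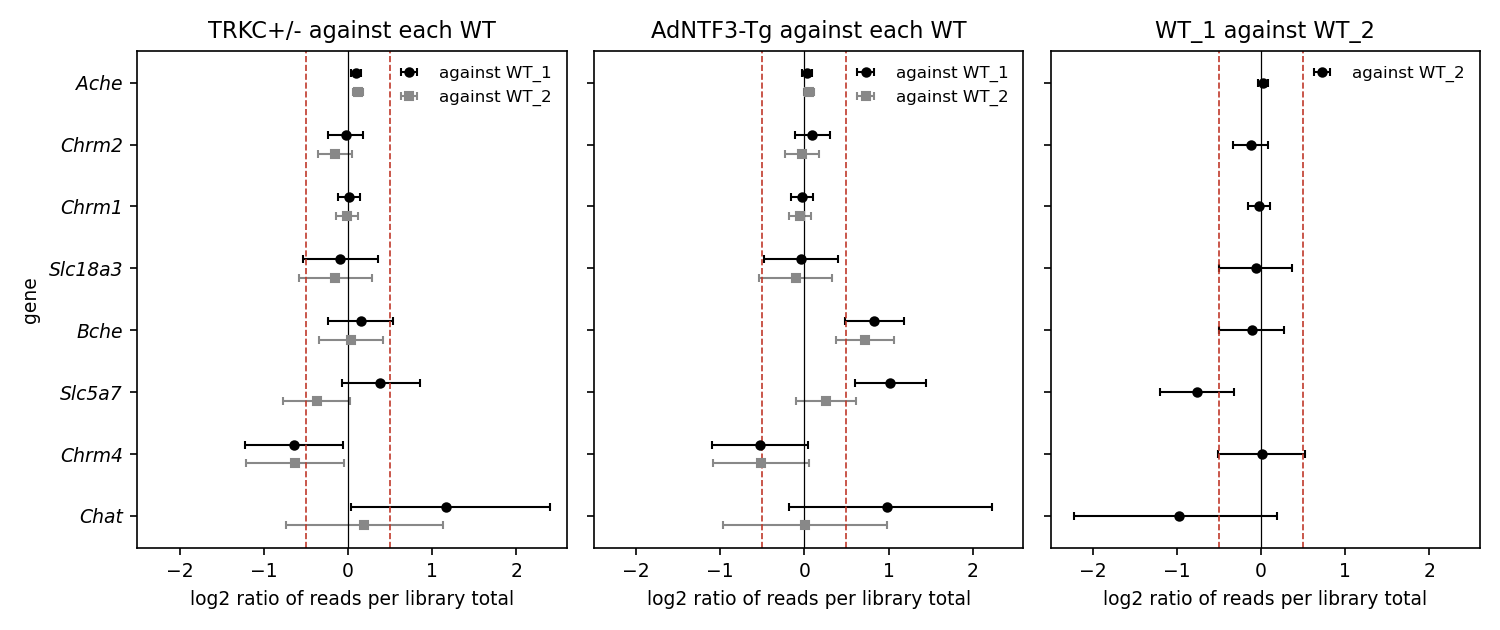
Log2 ratio of reads per library total for each gene, with the library labelled TRKC+/- and AdNTF3-Tg against WT_1 (circles) and WT_2 (squares), and WT_1 against WT_2. Bars are 95% counting intervals and dashed lines mark a log2 ratio of 0.5 either way. *Bche* lies to the right of the line against both WT libraries in AdNTF3-Tg (0.83 and 0.72), and *Chrm4* to the left in the library labelled TRKC+/- (−0.63 and −0.63).

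Muscarinic receptors were represented by 3 of the 5 genes of the family. *Chrm2* (Entrez 243764, chromosome 6, 36387991 to 36528638), which encodes the M2 receptor, had 21.74 FPKM (375 reads) in WT_1, 23.92 (417 reads) in WT_2, 21.47 (378 reads) in the library labelled TRKC+/- and 23.47 (407 reads) in AdNTF3-Tg. *Chrm1* (Entrez 12669, chromosome 19, 8664005 to 8683606), which encodes the M1 receptor, had 17.03 FPKM (915 reads) in WT_1, 17.38 (949 reads) in WT_2, 17.22 (946 reads) in the library labelled TRKC+/- and 16.77 (911 reads) in AdNTF3-Tg. Its highest value was 1.04-fold its lowest, the narrowest range of the 8 genes. All counting intervals of *Chrm1* and *Chrm2* between mutant and WT libraries included 0, and the widest bounds were −0.19 to 0.14 for *Chrm1* and −0.35 to 0.30 for *Chrm2* on the log2 scale. A change larger than those bounds would have been outside the counting error.

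*Chrm3*, which encodes the M3 receptor (Entrez 12671, chromosome 13, 9875486 to 10361062), had 2 reads (0.07 FPKM) in WT_1 and no entry in the remaining libraries. A count of 0 there allows up to 3 reads, or 0.106 to 0.108 FPKM for a gene of its length, and no fold is given because all libraries were at or under that floor. *Chrm5*, the family member outside the 9 genes, was listed in no library.

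*Chrm4* (Entrez 12672, chromosome 2, 91922189 to 91929835), which encodes the M4 receptor, was lower in the library labelled TRKC+/- than in either WT library. It had 2.75 FPKM (65 reads) in WT_1, 2.76 FPKM (66 reads) in WT_2, 1.78 FPKM (43 reads) in the library labelled TRKC+/- and 1.93 FPKM (46 reads) in AdNTF3-Tg. The WT libraries were the same to within 1 read, and both mutant libraries were below them. With 0.1 FPKM added, the level in the library labelled TRKC+/- was 0.658-fold the WT mean, a log2 fold change of −0.60. The log2 ratio of reads in that library was −0.63 against WT_1 (counting interval −1.23 to −0.06) and −0.63 against WT_2 (−1.22 to −0.05). *Chrm4* was the 1 gene of the 8 past the cutoff there, beside 4.27% of all genes (653 of 15275) and 1.64% of those that averaged 1 FPKM or more. It also met the rule that both counting intervals leave out 0, as did 0.628% of all genes. In AdNTF3-Tg the log2 fold change was −0.49, just short of the cutoff, and the counting intervals against the WT libraries reached from −1.10 to 0.05 and from −1.09 to 0.05. The adjusted p of *Chrm4* in edgeR's quasi-likelihood test was 0.999 in the library labelled TRKC+/- and 0.827 in AdNTF3-Tg. In the library labelled TRKC+/- *Ntrk3* had 91 reads, against 78 and 83 in the WT libraries, a count per gene that cannot decide the genotype.

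The RefSeq promoter window of *Chrm4*, the receptor gene past the cutoff in the library labelled TRKC+/-, is chr2:91921939-91922238 on the plus strand of GRCm38.p6, with GC boxes in capitals.

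Chrm4: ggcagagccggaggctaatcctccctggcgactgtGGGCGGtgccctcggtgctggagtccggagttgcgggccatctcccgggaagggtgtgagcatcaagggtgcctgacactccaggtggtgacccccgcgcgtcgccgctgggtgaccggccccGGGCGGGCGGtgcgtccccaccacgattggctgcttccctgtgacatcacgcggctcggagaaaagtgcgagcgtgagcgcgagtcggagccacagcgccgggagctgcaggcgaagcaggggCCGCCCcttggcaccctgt

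It held 70.7% G and C (percentile 91.8 of all windows) and 4 GC boxes, a pair of which share bases. At its other end *Chrm4* overlaps *Mdk* by 31 bases. *Mdk* had 70 reads in WT_1, 48 in WT_2, 72 in the library labelled TRKC+/- and 59 in AdNTF3-Tg. All counts of *Chrm4* were whole numbers. Whether counting used strand is not given in the sources used here. Beside *Chrm4*, the summed level of 7 adipocyte markers was 211 FPKM in the library labelled TRKC+/- against 344 and 381 in the WT libraries, with *Ucp1* and *Fabp4* lower (2 of 7 past the cutoff). That of 6 immune markers was 162 FPKM against 191 and 208 (0 of 6), and 2 of 7 sensory neuron markers, *Scn10a* and *Scn11a*, were lower, with *Mrgprd* at 0, while 0 of 10 noradrenergic and 0 of 6 pan-neuronal markers were past the cutoff. No marker of the adipocyte or immune lists was at 0. Their part in the level of *Chrm4* was not tested.

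The shares of the receptor genes were close across the libraries, apart from that of *Chrm4*. *Chrm2* made up 52.4% of the summed FPKM of the 3 detected receptor genes in WT_1, 54.3% in WT_2, 53.1% in the library labelled TRKC+/- and 55.7% in AdNTF3-Tg. *Chrm1* made up between 39.4% and 42.6%. *Chrm4* made up 6.6% and 6.3% in the WT libraries, 4.4% in the library labelled TRKC+/- and 4.6% in AdNTF3-Tg. The ratio of *Chrm2* to *Chrm1* per length, a Gi-coupled to a Gq-coupled receptor, was 1.28 and 1.38 in the WT libraries, 1.25 in the library labelled TRKC+/- and 1.40 in AdNTF3-Tg. That order and the shares depend on the gene lengths used, 2036 bases for *Chrm2* and 6228 for *Chrm1*. By reads *Chrm1* was above *Chrm2* in every library.

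**Figure D3:**
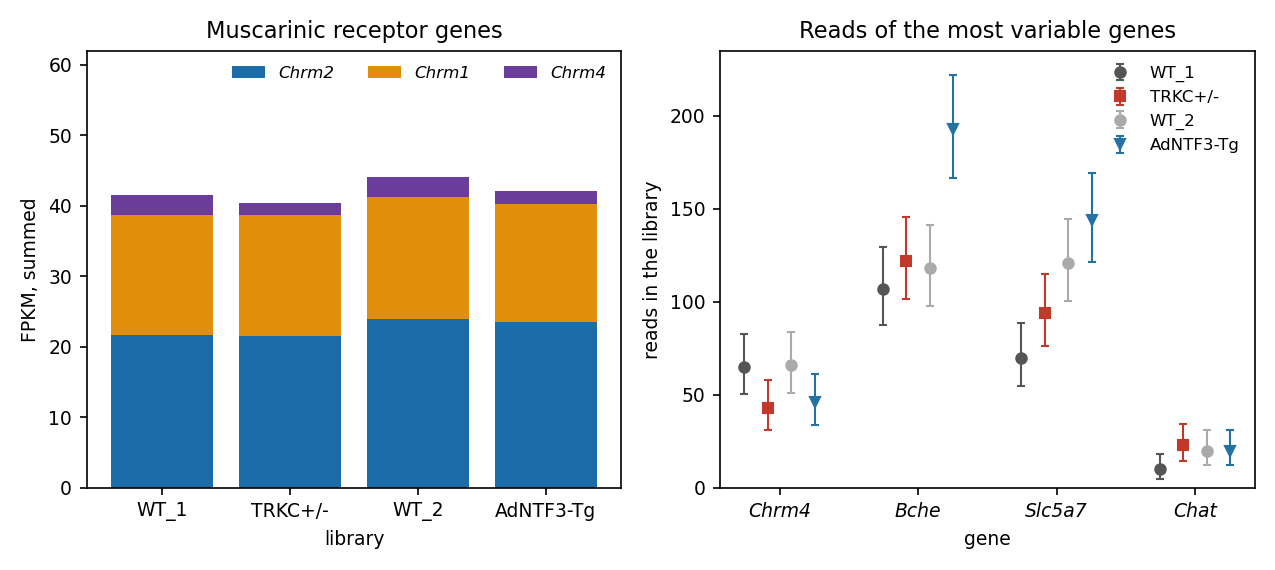
Left, FPKM of the 3 detected muscarinic receptor genes stacked for each library. Right, reads of the 4 genes with the largest spread between libraries, each point 1 library with its 95% counting interval. The stacks sum to between 40.47 and 44.06 FPKM, and *Bche* in AdNTF3-Tg stands at 193 reads against 107 to 122 in the other libraries.

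Over the 8 genes the median log2 fold change against the WT mean was −0.019 in the library labelled TRKC+/-, where it was 0.000 over all genes, and 0.043 in AdNTF3-Tg, where it was −0.003 over all genes. The median size of the change was 0.1 against 0.115 over all genes in the library labelled TRKC+/-, and 0.217 against 0.146 in AdNTF3-Tg.

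**Figure D4:**
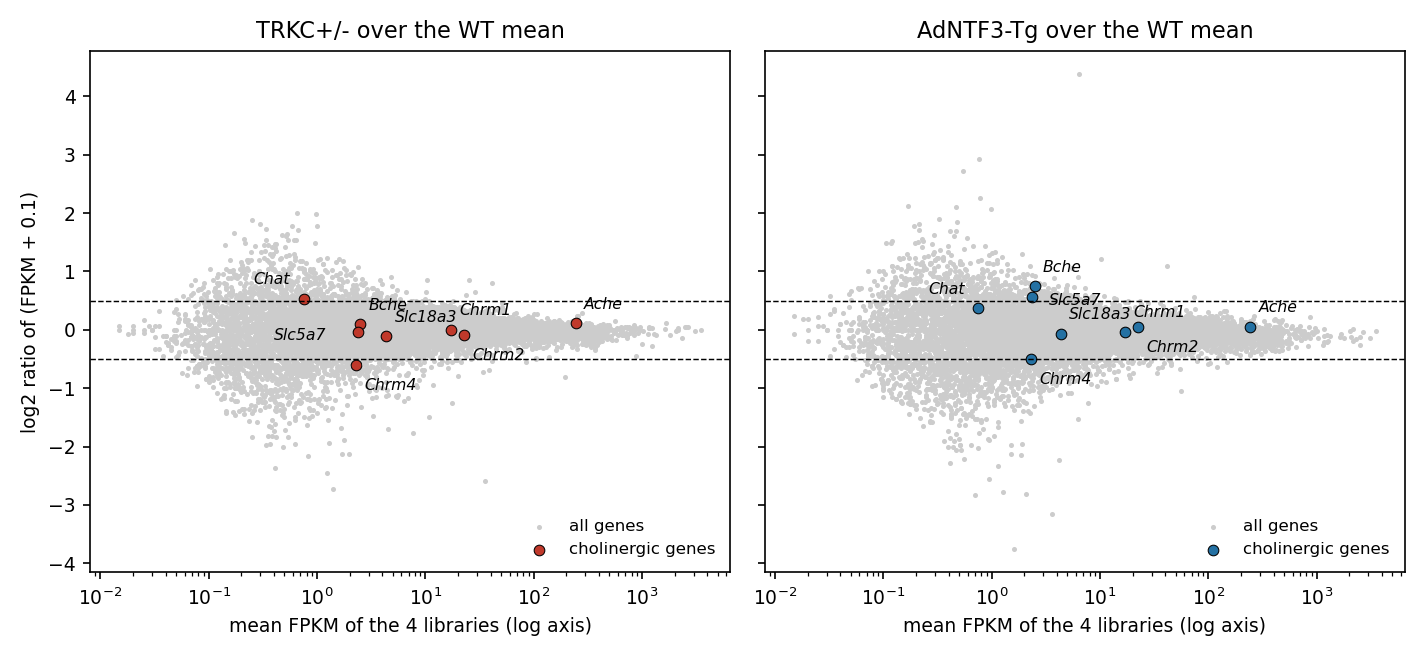
Log2 ratio of (FPKM + 0.1) of each mutant library to the WT mean against mean FPKM (log axis), for all 15275 genes (grey) and the 8 cholinergic genes (coloured). Dashed lines mark a log2 ratio of 0.5 either way. Outside the lines lie *Chat* (0.53) and *Chrm4* (−0.60) in the library labelled TRKC+/-, and *Bche* (0.74) and *Slc5a7* (0.57) in AdNTF3-Tg.

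Of 14 genes that supply acetylcholine synthesis or anchor its esterase, 12 were listed in all libraries. In either mutant 0 of the 12 passed the cutoff, where 4.27% of all genes in the library labelled TRKC+/- and 5.7% in AdNTF3-Tg did, a count close to the share over all genes for a list of this size. Their median log2 fold changes were 0.03 in the library labelled TRKC+/- and −0.05 in AdNTF3-Tg. *Acly*, which makes cytosolic acetyl-CoA, had 341 to 375 FPKM. *Prima1*, which anchors acetylcholinesterase in neuronal membranes, had 10.8 to 13.5 FPKM, and *Colq*, which anchors it at the end plate of muscle, 4.92 to 5.67 FPKM. Of 26 genes through which muscarinic receptors act, 25 were listed in all libraries and 0 passed the cutoff in either mutant, with medians of −0.001 and 0.01, a count that likewise lies close to the shares over all genes. Among them *Gnaq*, the Gq subunit coupled to M1 receptors, had 40.1 to 41.2 FPKM.

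Of 15 genes known from cholinergic sympathetic neurons or from the cytokine receptors that induce their transmitter, 13 were listed in all libraries. In the library labelled TRKC+/- *Sst*, a neuropeptide gene, was past the cutoff, at 15.85 FPKM (76 reads) against 8.62 (41 reads) in WT_1 and 8.94 (42 reads) in WT_2. In AdNTF3-Tg *Calca*, which encodes the neuropeptide CGRP, was past it, at 6.19 FPKM (52 reads) against 4.18 (35 reads) and 3.13 (26 reads), as was the homeobox gene *Tlx3*, at 18 reads against 7 and 10. *Vip*, whose peptide is released with acetylcholine at sweat glands, had 51.87 FPKM in WT_1, 86.83 in WT_2, 62.68 in the library labelled TRKC+/- and 70.1 in AdNTF3-Tg, so that both mutant libraries lay between the WT libraries. *Hmx2* and *Hmx3* were listed in no library. The medians of the list were 0.005 and 0.055, and the 1 and 2 genes past the cutoff of 13 stood beside 4.27% and 5.7% of all genes.

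Cholinergic transcripts were far below their noradrenergic counterparts. *Slc18a2*, the vesicular transporter of monoamines, had 385 FPKM in WT_1, 468 in WT_2, 417 in the library labelled TRKC+/- and 474 in AdNTF3-Tg, which was 87.9-fold to 110.2-fold the level of *Slc18a3* per length. The ratio of *Th* to *Chat* was 3209 in WT_2, 2928 in the library labelled TRKC+/- and 3104 in AdNTF3-Tg, and 6382 in WT_1, where *Chat* had 10 reads.

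The genes whose profile over the 4 libraries was most like that of a member were found by the distance between log2 values centred on each gene's mean, for the 4 members with at least 100 reads in every library. They were *Isl1*, *Foxk1* and *Slc35e3* for *Ache* (distances 0.009 to 0.010), *Hadha*, *Clic1* and *Tmem59* for *Chrm1* (0.007 to 0.008) and *Ankrd40*, *Tmem135* and *Xab2* for *Chrm2* (0.009 to 0.013). These 3 members were themselves within 0.0382 to 0.135 of a flat profile. For *Bche*, at 0.628 from a flat profile, they were *Smc2* (0.045), *Tfb1m* (0.094) and *Gm45351* (0.097). *Smc2* had 0.94 FPKM in WT_1, 1.01 in WT_2, 1.08 in the library labelled TRKC+/- and 1.68 in AdNTF3-Tg. With 4 libraries such likeness is a description of these values.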

How the data were processed

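Ganglion RNA of pooled mice was sequenced as 4 oligo(dT)-selected, single-end libraries by the authors, whose methods name SOAPnuke, HISAT2 and mm9, while the submitters' processing notes name RSEM and mm10; positions here are RefSeq's on GRCm38.p6. For each Entrez gene the authors deposited an expected count, not normalized and whole for 92.6% to 93.7% of genes. They also deposited FPKM, as the file headers name it. Genes without reads were not listed. Symbols matched 99.7% of 17667 identifiers.

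Groups followed the genotype labels. FPKM values were compared with a cutoff of 0.5 on the log2 scale, with 0.1 FPKM added. The study applied a cutoff of that size to RPKM values, for genes changed in opposite directions in the mutants; here each mutant was taken on its own, over the 15275 genes listed in all 4 libraries and against both WT libraries. Counting intervals (95%) used expected counts rounded to whole numbers (scipy 1.17.1), and 3 reads was taken as the floor, 0.337 to 0.346 CPM. As alternatives, rounded expected counts were tested with edgeR 4.0.16 (quasi-likelihood, Benjamini-Hochberg) and DESeq2 1.42.0, with the WT libraries as replicates. Other alternatives were the pseudocount, filters, scalings, cutoff and either WT library alone. Each library is 1 pool. The p-values rest on the spread between the WT pools, with each gene's spread drawn towards that of other genes, and on no spread between mutant pools. The scripts were tested on simulated data. The 9 genes were given as a list. They and the other lists were chosen with earlier results of these data known. All 9 are named, other list genes mainly where past the cutoff or to illustrate a list, and the 3 most alike genes for members with at least 100 reads in every library. *Acly*, *Prima1*, *Colq*, *Gnaq*, *Vip*, *Hmx2*, *Hmx3*, *Slc18a2*, *Mdk* and *Smc2* were named after their values were seen.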

Additional observations from a re-analysis of the deposited data

How the results depend on the processing

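*Chrm4* in the library labelled TRKC+/- and *Bche* in AdNTF3-Tg stayed past the cutoff with 0.01 FPKM added, among genes averaging 1 FPKM or more, with missing genes at 0, with equal FPKM sums, with median-centred ratios, with TMM-scaled CPM, with counting intervals that leave out 0, against the mean of the WT libraries and against either WT library alone. Of the 8 genes past the cutoff, the library labelled TRKC+/- held 0 with 1 FPKM added, where *Chrm4* was at −0.43, 0 at a cutoff of 1, 0 by edgeR, 0 by DESeq2 and 2 against the WT mean (with *Chat*). AdNTF3-Tg held 2 with 0.01 FPKM added (with *Chrm4*), 2 against the WT mean (with *Slc5a7*), 0 at a cutoff of 1, 0 by edgeR and 0 by DESeq2. Leaving out a WT library gave 1 to 2 genes in the former, the 2 without WT_2 (with *Chat*), and 1 to 3 in the latter, the 3 without WT_2 (with *Chat* and *Slc5a7*). Between the WT libraries the 2 genes became 1 with 1 FPKM added, 1 among genes averaging 1 FPKM or more, 1 with counting intervals, 0 at a cutoff of 1 and 3 with missing genes at 0 (with *Chrm3*, at 2 reads and 0).

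Over all genes, the 653 of the library labelled TRKC+/-, the 871 of AdNTF3-Tg and the 2044 between the WT libraries became 105, 165 and 633 with 1 FPKM added, 209, 332 and 926 among genes averaging 1 FPKM or more, 1315, 1552 and 3381 with missing genes at 0, 133, 177 and 534 at a cutoff of 1, and 96, 195 and 786 with counting intervals. Against the WT mean the first 2 were 1308 and 1674, by edgeR 0 and 0, and by DESeq2 2 and 0. Leaving out a WT library gave 1632 to 1933 and 2033 to 2116, since 1 criterion was then dropped. No paired analysis was possible because the labels do not tie a WT library to a mutant line. *Chat* had 10 to 23 reads per library, and for equal counts of 20 the counting interval ran from −0.96 to 0.98.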
